A study of Homo sapiens with 3 samples.

Results

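The genes described here are the RAB GTPases other than RAB11 in EBC-1 cells, an established human line from a squamous cell carcinoma of the lung. Members were the entries whose gene symbol is RAB followed by a number and at most a letter and a digit, leaving out RAB11A and RAB11B. The rule found 45 of the 13479 entries listed. These 45 entries carry 44 symbols, because RAB5C has 2 overlapping identifiers. In 3 libraries, cap analysis of gene expression (CAGE) had counted the capped 5′ ends of RNA. The cells had been electroporated with RAB11A siRNA 1, with RAB11A siRNA 2 or with a negative control siRNA, 1 library each. Each electroporation used 600 pmol of siRNA, and the labels date every library 72 h after plating. Each group was 1 library, so the differences have no replicate check.

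RAB proteins are small GTPases that mark the membranes of the cell. Bound to GTP, each recruits effectors (tethers, motors and adaptors) to 1 kind of vesicle or organelle, and exchange factors and GTPase-activating proteins switch it on and off. RAB11A acts at the recycling endosome, which receives cargo from RAB5 and RAB4 endosomes and hands it to secretory carriers. In epithelial and carcinoma cells these routes carry receptors, integrins and junction proteins.

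The siRNA sequences and some of their closest places in the family are shown, with those of RAB43, because the siRNAs define the groups and a paralog could carry a near match. Capitals in each siRNA mark the seed match, opposite guide positions 2 to 8. Capitals in each gene site mark bases that differ from the siRNA.
siRNA 1: gcauccagguuGAUGGAAa
RAB11A site of siRNA 1: gcatccaggttgatggaaa
RAB11B site of siRNA 1: gcatccaggtGgaCggCaa
RAB1B site of siRNA 1: CcatcGagCtGgatggCaa
RAB43 site of siRNA 1: AcatccagCtGAaCAgCaa
siRNA 2: agcaagagcuuUUGCAGAa
RAB11A site of siRNA 2: agcaagagcttttgcagaa
RAB40B site of siRNA 2: agGaagagctGttTcagTa
RAB43 site of siRNA 2: aCcCagagctACtAcCgCa

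Both siRNAs match RAB11A without a mismatch, in GRCh37/hg19 coding sequence on the plus strand. The site was chr15:66169784-66169802 for siRNA 1 and, across an exon junction, chr15:66170277-66170293 and chr15:66172009-66172010 for siRNA 2. RAB11B, the paralog of RAB11A, had 3 mismatches to siRNA 1 at chr19:8464861-8464879 and 6 to siRNA 2. Among the members, RAB1B had 5 mismatches to siRNA 1 at chr11:66039686-66039704, in coding sequence, and so had RAB15 and RAB40B in their 3′ UTRs and the pseudogene RAB1C. RAB40B had 4 mismatches to siRNA 2 at chr17:80615017-80615035, minus strand, in the 3′ UTR, and RAB24, RAB3B, RAB5C and RAB9A had 5. RAB43 had 7 mismatches to each siRNA at its closest site, at chr3:128809973-128809991 for siRNA 1 and chr3:128813949-128813967 for siRNA 2, minus strand, in coding sequence. With RAB5C counted once, 3 of 41 members (7.32%) had a site of 5 or fewer mismatches to siRNA 1, against 6.20% of 10349 genes. For siRNA 2 the same held for 5 of 41 members (12.2%), against 12.9% of genes. Near matches were thus about as frequent among the members as among all genes.

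The seed match of siRNA 1 occurred in the 3′ UTR of 10 of 41 members (24.4%), against 14.6% of 9599 genes with an annotated 3′ UTR. For siRNA 2 it occurred in 12 of 41 (29.3%), against 16.1%. The 10 members with a siRNA 1 seed match had a median log2 ratio to control of -0.14 with that siRNA, and those without one -0.03. The 12 members with a siRNA 2 seed match had a median of -0.06 with that siRNA, and those without one 0.01. RAB43 was among the 12 and not among the 10. RAB22A, RAB1B and RAB3B were among the 10 and not among the 12. With siRNA 1, RAB22A and RAB1B stood below control and RAB3B above it. The part of seed matches in any ratio was not tested.

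The deposited values are tags scaled to a fixed library total (CPM), and 0.04 CPM stands for 1 tag. CAGE counts 1 end per RNA molecule whatever its length, so CPM levels of different genes are set side by side without division by length. RAB11A stood at 7.48 CPM with siRNA 1 and 22.7 CPM with siRNA 2, against 135.3 CPM in control. RAB11B stood at 113.3 CPM with siRNA 1 and 97.4 CPM with siRNA 2, against 123.6 CPM in control. Of 15 squamous lineage markers, 3 had an entry (PERP, SFN and S100A2), summing to 196.4 CPM with siRNA 1, 185.6 CPM with siRNA 2 and 197.4 CPM in control. TP63, SOX2 and KRT5, which define squamous carcinoma, matched no entry analysed here. Of 6 epithelial markers 5 had an entry, the keratins KRT7, KRT8, KRT18 and KRT19 and EPCAM, and CDH1 had none. They summed to 1064.8 CPM with siRNA 1, 923.6 CPM with siRNA 2 and 886.5 CPM in control. KRT19 stood at 175.4 CPM with siRNA 1 and 151.6 CPM with siRNA 2, against 109.3 CPM in control. KRT18 stood at 475.0 and 394.1 CPM, against 385.8 CPM, and KRT8 at 357.9 and 328.9 CPM, against 328.2 CPM. KRT7 was lower with both siRNAs, at 52.2 and 45.3 CPM, against 59 CPM. EPCAM lay between 3.72 and 4.28 CPM. None of 6 alveolar and adenocarcinoma markers had an entry, and of 12 fibroblast, endothelial and leukocyte markers 3 had one, summing to 24.4 CPM with siRNA 1, 34.0 CPM with siRNA 2 and 48.0 CPM in control. CD68 alone of these reached a mean of 5 CPM. CD68 stood at 21.1 CPM with siRNA 1 and 31.4 CPM with siRNA 2, against 45.2 CPM in control. The part of these markers in any result below was not tested. Fewer cells and less RNA per cell cannot be told apart in such bulk RNA.

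RAB transcript starts covered a wide range of levels. RAB7A, which drives late endosomes toward lysosomes, was the highest member, at 363.8 CPM with siRNA 1 and 385.4 CPM with siRNA 2, against 398.7 CPM in control. RAB2A, a Golgi and ER-to-Golgi GTPase, was next, at 259.4 CPM with siRNA 1 and 272.5 CPM with siRNA 2, against 295.7 CPM in control. RAB32, which serves lysosome-related organelles, followed, at 209.6 CPM with siRNA 1 and 231.4 CPM with siRNA 2, against 222.4 CPM in control. The order of these 3 was the same in each library, and each gap was larger than the counting intervals. Next came RAB10, the overlapping RAB5C entries and RAB21, with means between 143 and 152.2 CPM. The level filter, a mean of 5 CPM or 125 tags, was passed by 42 of the 45 entries, and their median of means was 47.7 CPM, against 30.9 CPM over all 10788 genes that passed it. RAB36, RAB39B and RAB1C fell short of 5 CPM. RAB1C is annotated as a processed pseudogene. An annotated start of RAB7A, RAB13, RAB18, RAB6A and RAB40C has a near-identical copy elsewhere in the genome, so their levels are less certain. No entry analysed here matched RAB25, RAB17, RAB27B, RAB3A, RAB3C, RAB6B, RAB7B, RAB9B, RAB26, RAB37 or the other symbols looked up, 19 in all. One of these, RAB29, is the present name of the entry listed as RAB7L1.

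**Figure D1:**
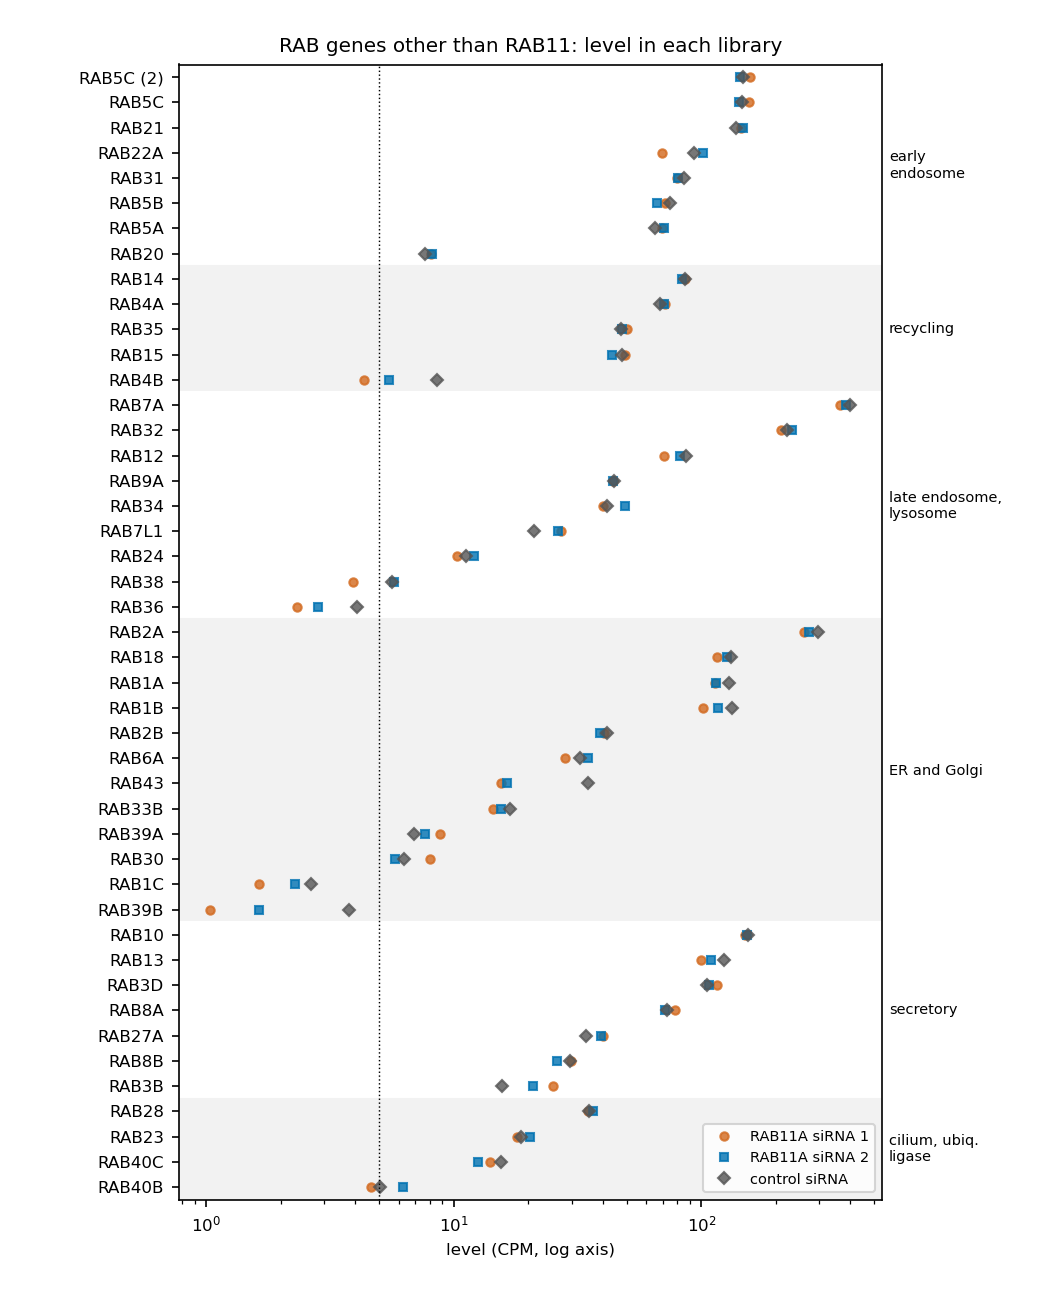
Level of each of the 45 entries in CPM on a log axis, with 1 point per library (circles for RAB11A siRNA 1, squares for RAB11A siRNA 2, diamonds for control siRNA), grouped by compartment. The dotted line is 5 CPM; for most genes the 3 points nearly coincide, and RAB43, RAB4B and RAB39B have the control point set to the right of both siRNA points.

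Most of the family stood close to its control level. On the log2(CPM + 1) scale, which understates the change of low genes, 28 of 42 members (66.7%) lay within 0.2 of control with siRNA 1, against 58.0% of all genes. With siRNA 2 it was 35 of 42 (83.3%), against 62.1%. The members were also higher in level (median of means 47.7 CPM, against 30.9 CPM), and higher genes carry less counting error. The part of level in these shares was not tested. Members at least 1.5-fold higher with siRNA 1 than in control numbered 1 (RAB3B), against 2.81% of all genes, and 2 were at least 1.5-fold lower (RAB43 and RAB4B), against 2.56%. RAB4B, at 4.32 CPM with siRNA 1, passed the level filter through its control level of 8.52 CPM. With siRNA 2 none was at least 1.5-fold higher, against 1.24% of all genes, and 1 (RAB43) was at least 1.5-fold lower, against 1.85%. At 2-fold, RAB43 alone was lower with siRNA 1 (0.519% of all genes) and with siRNA 2 (0.269%). No member was 2-fold higher with siRNA 1 (0.371%) or with siRNA 2 (0.195%). In both siRNA libraries together, 1 member was 1.5-fold lower (0.899% of all genes) and 2-fold lower (0.158%), and none was 1.5-fold higher (0.825%) or 2-fold higher (0.102%). Counts of 1 or 2 among 42 are too small to be read as a departure from these shares. Between siRNA 1 and siRNA 2, no member was 1.5-fold higher (0.899%) or lower (0.695%), nor 2-fold higher (0.167%) or lower (0.185%), and 31 lay within 0.2 of each other (71.8%).

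The median log2 ratio of the 42 members was -0.04 with siRNA 1 and -0.02 with siRNA 2, against -0.03 and -0.04 over all genes. With siRNA 1, 16 members were above and 26 below control (45.1% and 54.6% of all genes), and with siRNA 2 it was 19 and 23 (41.4% and 58.2%). Under TMM scaling, which brings the median of all genes to 0.00 for siRNA 2, that split became 26 above and 16 below and the member median 0.03. Members above control in both libraries numbered 10 (31.4% of all genes) and those below in both 17 (44.5%), and 16 and 13 under TMM scaling. Directions this close to 0 are therefore not read. Both ratios use the same control library. An exact binomial test on the recovered tags, which compares these libraries and not the conditions, called 7 members higher and 13 lower with siRNA 1 (23.3% and 29.1% of all genes). With siRNA 2 it called 7 higher and 10 lower (18.4% and 29.9%). Between siRNA 1 and siRNA 2 it called 8 higher and 12 lower (21.4% and 15.4%), and 17 members were above and 25 below at any size (55.0% and 44.6%).

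**Figure D2:**
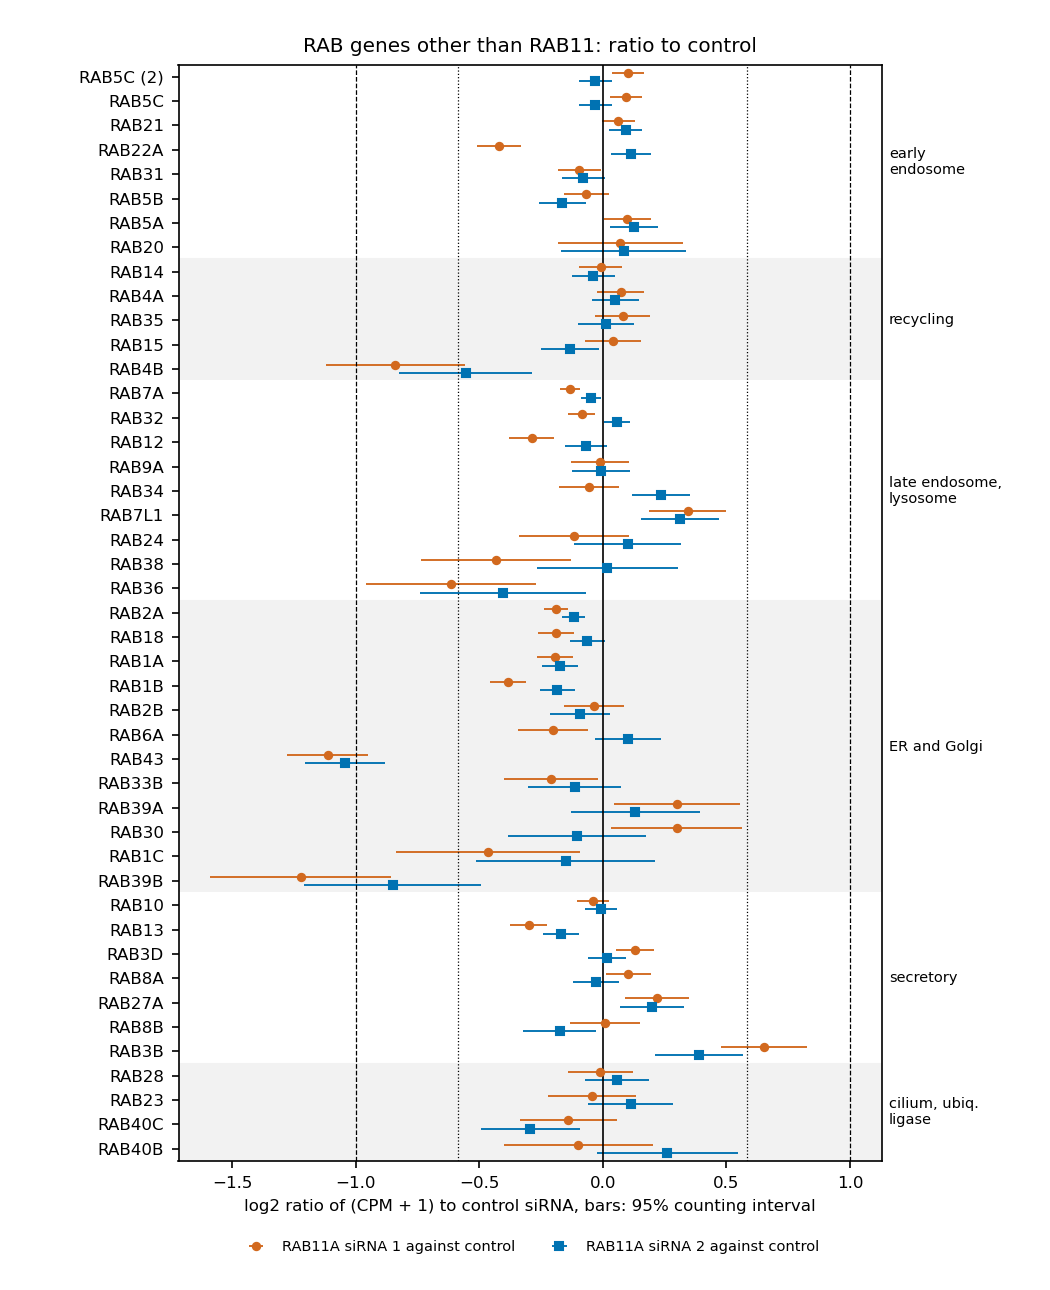
Log2 ratio of (CPM + 1) to the control siRNA library for each entry, with RAB11A siRNA 1 as circles and RAB11A siRNA 2 as squares; bars are 95% counting intervals. Dotted lines mark 1.5-fold and dashed lines 2-fold; RAB43 lies beyond 2-fold on the lower side for both siRNAs, RAB39B, under the level filter, for siRNA 1, and RAB3B lies on the higher side.

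**Figure D3:**
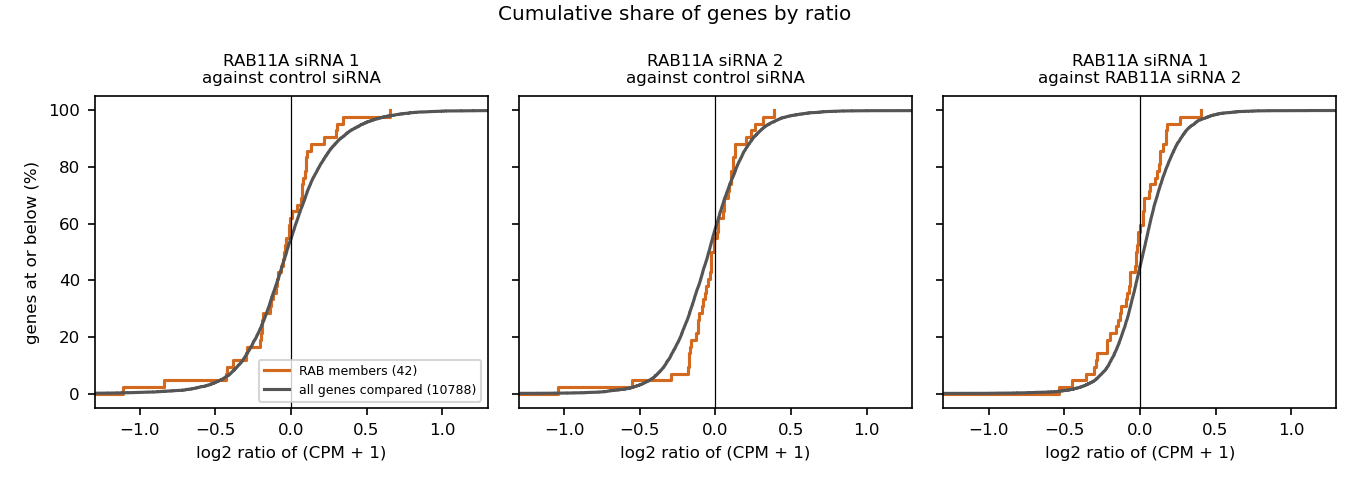
Cumulative percent of genes by log2 ratio of (CPM + 1) in the 3 comparisons, for the 42 RAB members and for all 10788 genes compared. With siRNA 2, 83.3% of members lie within 0.2 of control, against 62.1% of all genes. Between siRNA 1 and siRNA 2, 59.5% of members lie below 0, against 44.6% of all genes. RAB43 is the lowest step in both comparisons with control, at -1.11 and -1.04.

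Early endosome RABs. RAB5A, RAB5B and RAB5C drive homotypic fusion of early endosomes. RAB5C was the highest of the 3 paralogs, at 155.7 CPM with siRNA 1 and 142.6 CPM with siRNA 2, against 145.6 CPM in control (log2 ratios 0.10 and -0.03, counting standard error 0.03). Its other identifier, ENSG00000267261, stood at 157.5 CPM with siRNA 1, 143.6 CPM with siRNA 2 and 146.7 CPM in control, so both entries hold nearly the same tags. RAB21, which moves integrins through endosomes, stood at 144.1 CPM with siRNA 1 and 147.1 CPM with siRNA 2, against 137.9 CPM in control (0.06 and 0.09). RAB5A stood at 69.5 CPM with siRNA 1 and 70.9 CPM with siRNA 2, against 64.8 CPM in control, and RAB5B at 71.1 and 66.4 CPM, against 74.5 CPM. The ratio of RAB5A to RAB5C was 0.447 with siRNA 1 and 0.497 with siRNA 2, against 0.445 in control. RAB5A to RAB5B was 0.978 with siRNA 1 and 1.07 with siRNA 2, against 0.870 in control, so RAB5A was the higher of that pair in the siRNA 2 library alone.

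RAB22A, which sorts cargo from early endosomes toward recycling, was the early endosome member farthest from control, in the siRNA 1 library. It stood at 69.6 CPM with siRNA 1 (1740 tags, 95% Poisson interval 66.4 to 72.9) and 101.2 CPM with siRNA 2 (97.3 to 105.2), against 93.5 CPM in control (89.7 to 97.4). The log2 ratio was -0.42 with siRNA 1 and 0.11 with siRNA 2 (counting standard errors 0.045 and 0.041). Between siRNA 1 and siRNA 2 it was -0.53 (0.044), the lowest value of any of the 42 members there. RAB31, its closest relative, stood at 79.4 CPM with siRNA 1 and 80.3 CPM with siRNA 2, against 84.9 CPM in control. RAB20, a low member that acts on phagosomes, lay between 7.68 and 8.20 CPM in all 3 libraries.

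Recycling and sorting RABs. RAB4A and RAB4B serve the fast return of receptors from early endosomes to the surface. RAB4A stood at 71.6 CPM with siRNA 1 and 70.6 CPM with siRNA 2, against 68.1 CPM in control (0.07 and 0.05). RAB4B stood at 4.32 CPM with siRNA 1 (108 tags) and 5.48 CPM with siRNA 2 (137 tags), against 8.52 CPM in control (213 tags). As a share of control, RAB4B was at 50.7% in the siRNA 1 library (39.9% to 64.2%, 95% exact interval) and 64.3% in the siRNA 2 library (51.5% to 80.1%). Its log2 ratios were -0.84 and -0.56 (counting standard errors 0.14 for each). RAB4A therefore outnumbered RAB4B 16.6 to 1 with siRNA 1 and 12.9 to 1 with siRNA 2, against 7.99 to 1 in control. The RAB4B values were identical to those of the read-through entry RAB4B-EGLN2, which shares its start region on chromosome 19, so these values do not separate them. EGLN2, the downstream gene, stood at 22.3 CPM with siRNA 1 and 24.8 CPM with siRNA 2, against 25.4 CPM in control.

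RAB14, which moves cargo between the Golgi and endosomes, stood at 85.6 CPM with siRNA 1 and 83.9 CPM with siRNA 2, against 86.2 CPM in control. RAB35, a regulator of endocytic recycling and cytokinesis, stood at 50.3 CPM with siRNA 1 and 47.9 CPM with siRNA 2, against 47.5 CPM in control. RAB15, found on sorting and recycling endosomes, stood at 49.3 CPM with siRNA 1 and 43.6 CPM with siRNA 2, against 47.9 CPM in control (0.04 and -0.13). Apart from RAB4B, all members of this group were thus within 0.2 of control with each siRNA.

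Late endosome and lysosome RABs. The RAB7A levels given above are log2 ratios of -0.13 and -0.05 (counting standard error 0.021 each), and the siRNA 2 ratio was 0.00 under TMM and median-ratio scaling. RAB32 had -0.09 and 0.06 (0.028 and 0.027). RAB9A, which returns mannose 6-phosphate receptors to the Golgi, was level at 44.1 CPM with siRNA 1, 44.2 CPM with siRNA 2 and 44.4 CPM in control. RAB12, which routes transferrin receptor to degradation, stood at 70.6 CPM with siRNA 1 and 82.4 CPM with siRNA 2, against 86.4 CPM in control (-0.29 and -0.07). RAB34, which positions lysosomes, stood at 40.0 CPM with siRNA 1 and 49.2 CPM with siRNA 2, against 41.6 CPM in control (-0.06 and 0.24). Only the siRNA 2 library was high for RAB34. RAB7L1, named RAB29 in the annotation and a partner of the kinase LRRK2, stood at 27.0 CPM with siRNA 1 and 26.4 CPM with siRNA 2, against 21.1 CPM in control (0.34 and 0.31, counting standard errors 0.080 and 0.081). Both siRNA libraries were above control for RAB7L1 by similar amounts.

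RAB38, a relative of RAB32 that is best known from melanosomes, stood at 3.92 CPM with siRNA 1 (98 tags) and 5.72 CPM with siRNA 2 (143 tags), against 5.64 CPM in control (141 tags). Its log2 ratio was -0.43 with siRNA 1 and 0.02 with siRNA 2. Between siRNA 1 and siRNA 2 it was -0.45 (counting standard error 0.16). RAB24, linked to autophagy, lay between 10.3 and 12.1 CPM. RAB36, under the level filter, stood at 2.32 CPM with siRNA 1 and 2.84 CPM with siRNA 2, against 4.08 CPM in control. Of the 8 late endosome and lysosome members compared, 7 were lower with siRNA 1 than with siRNA 2, against 44.6% of all genes. The median log2 ratio of the 8 was -0.18, against 0.02 over all genes. Among the 7, RAB9A (-0.003, counting standard error 0.060) and RAB24 (-0.22, 0.11) were within 2 counting standard errors of 0. RAB38, also among them, passed the level filter only through the siRNA 2 and control libraries, so the filter favours its lower siRNA 1 level. The count was 7 of 8 under both other scalings too, which lower every ratio of this comparison and so could not reduce it. This comparison does not use the control library. Also lower with siRNA 1 than with siRNA 2 were 7 of 10 ER and Golgi and 5 of 8 early endosome members. The same held for 3 of 4 cilium and ubiquitin ligase, 2 of 7 secretory and 1 of 5 recycling members. Against control, 7 of the 8 late endosome and lysosome members were below with siRNA 1 and 3 with siRNA 2. No test of the group was made.

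ER and Golgi RABs. Most members of this group stood below control in both siRNA libraries, by small amounts apart from RAB43. Of its 10 members compared, 8 were below control with siRNA 1 and 8 with siRNA 2, against 54.6% and 58.2% of all genes. In both libraries together it was 7 of 10, against 44.5% of all genes, and this count was 7 under TMM and median-ratio scaling too. Among these 7, RAB2B was within 2 counting standard errors of control with each siRNA (-0.03 and -0.09). RAB18 and RAB33B were so with siRNA 2 (-0.06 and -0.11). The 2 siRNA ratios share the control library, so they are not independent. In both libraries, 3 of 8 late endosome, 2 of 8 early endosome and 2 of 5 recycling members were below control. So were 2 of 7 secretory and 1 of 4 cilium and ubiquitin ligase members. With siRNA 1, 7 of 8 late endosome and 4 of 4 cilium and ubiquitin ligase members were below control. With siRNA 2 it was 3 of 8 and 1 of 4. The ER and Golgi group's median log2 ratios were -0.19 and -0.11, and -0.17 and -0.06 under TMM scaling. Its summed level was 705.3 CPM with siRNA 1 and 749.9 CPM with siRNA 2, against 829.3 CPM in control. No test of the group was made.

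RAB1A and RAB1B start transport from the ER to the Golgi. RAB1A stood at 113.0 CPM with siRNA 1 and 114.7 CPM with siRNA 2, against 129.5 CPM in control (-0.19 and -0.17). RAB1B stood at 101.7 CPM with siRNA 1 and 117.0 CPM with siRNA 2, against 133.0 CPM in control (-0.38 and -0.18, counting standard errors 0.038 and 0.036). The RAB2A log2 ratios were -0.19 and -0.12 (0.024 each), and the siRNA 2 ratio was -0.07 under TMM and median-ratio scaling. RAB18, a GTPase of the ER and lipid droplets, stood at 115.9 CPM with siRNA 1 and 126.6 CPM with siRNA 2, against 132.3 CPM in control (-0.19 and -0.06). These 4 high members were each lower in both siRNA libraries than in control, and RAB18 with siRNA 2 was within 2 counting standard errors of it. RAB2B, the paralog of RAB2A, lay between 38.9 and 41.5 CPM in all libraries. RAB6A, which returns vesicles from the Golgi to the ER, stood at 28.0 CPM with siRNA 1 and 34.9 CPM with siRNA 2, against 32.4 CPM in control. RAB33B, a Golgi RAB with a part in autophagy, lay between 14.4 and 16.8 CPM.

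RAB43, a Golgi GTPase, was the member farthest from control among those compared. It stood at 15.6 CPM with siRNA 1 (389 tags) and 16.4 CPM with siRNA 2 (409 tags), against 34.8 CPM in control (870 tags). Its siRNA 1 level was 44.7% of the control level (39.6% to 50.5%, 95% exact interval), and its siRNA 2 level 47.0% (41.7% to 52.9%). Both siRNA libraries were low to nearly the same degree, with a log2 ratio of -0.07 between siRNA 1 and siRNA 2 (counting standard error 0.096). The log2 ratios to control were -1.11 and -1.04 (0.084 and 0.082). With siRNA 2 the ratio was just short of 2-fold under TMM scaling.

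RAB43 (ENSG00000172780) lies at chr3:128806412-128841644 on the minus strand (GRCh37/hg19). The read-through entry ISY1-RAB43 overlaps it on the same strand. ISY1-RAB43 stood at 51.8 CPM with siRNA 1 and 53.1 CPM with siRNA 2, against 51.8 CPM in control, and the splicing factor gene ISY1 had identical values. The read-through entry, whose tags are those of ISY1, was thus level across the libraries in which RAB43 itself was low.

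RAB39B, a GTPase known best from neurons, was under the level filter. It stood at 1.04 CPM with siRNA 1 (26 tags) and 1.64 CPM with siRNA 2 (41 tags), against 3.76 CPM in control (94 tags). Those levels were 27.7% of control (95% exact interval 17.2% to 43.1%) and 43.6% (29.5% to 63.6%). Its paralog RAB39A stood at 8.76 CPM with siRNA 1 and 7.68 CPM with siRNA 2, against 6.92 CPM in control. RAB39A to RAB39B was 8.42 with siRNA 1 and 4.68 with siRNA 2, against 1.84 in control. RAB30, a Golgi RAB, stood at 8 CPM with siRNA 1 and 5.80 CPM with siRNA 2, against 6.32 CPM in control, and its log2 ratio between siRNA 1 and siRNA 2 was 0.40 (counting standard error 0.14). The pseudogene RAB1C had between 41 and 66 tags.

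**Figure D4:**
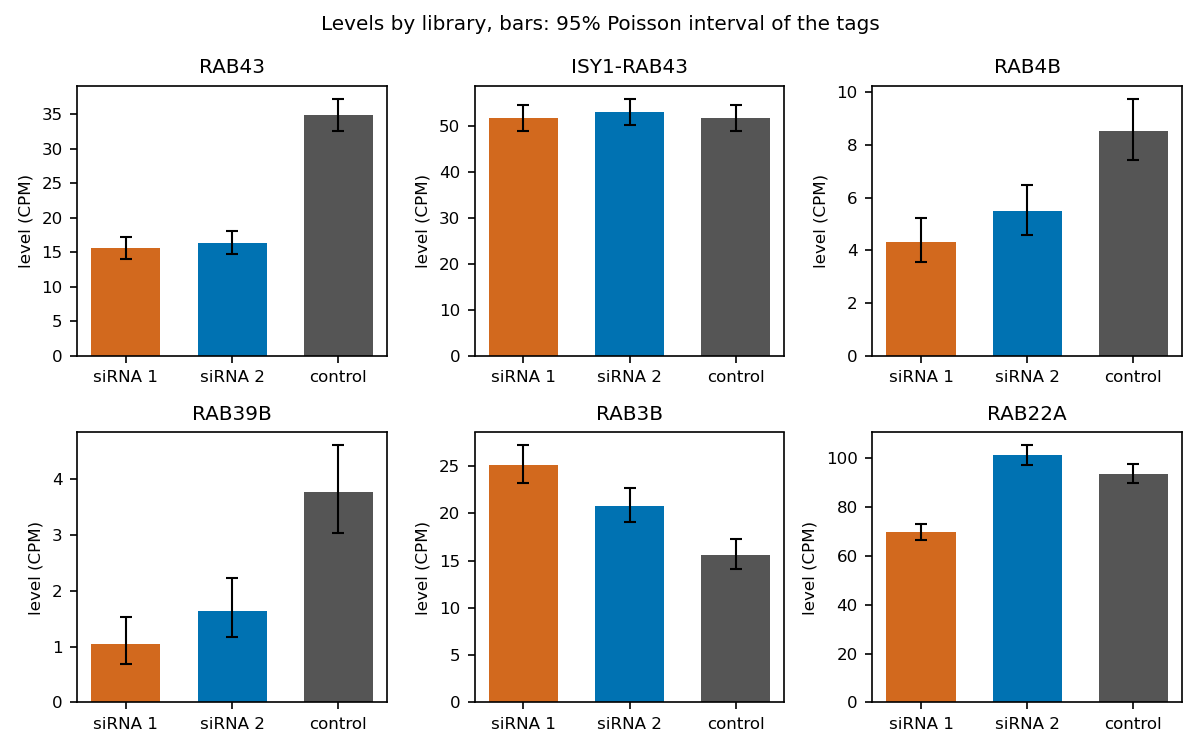
Levels in CPM of RAB43, its read-through entry ISY1-RAB43, RAB4B, RAB39B, RAB3B and RAB22A with RAB11A siRNA 1, RAB11A siRNA 2 and control siRNA; error bars are 95% Poisson intervals of the tags. RAB43 stood at 15.6 and 16.4 CPM against 34.8 in control while ISY1-RAB43 lay between 51.8 and 53.1 CPM.

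Secretory RABs. RAB10 and RAB13 act in basolateral exocytosis and at tight junctions. RAB10 was level at 149.8 CPM with siRNA 1, 152.9 CPM with siRNA 2 and 153.8 CPM in control. RAB13 stood at 99.8 CPM with siRNA 1 and 109.5 CPM with siRNA 2, against 123.2 CPM in control (-0.30 and -0.17, counting standard errors 0.039 and 0.038). RAB8A, which with RAB11 feeds the primary cilium and apical membrane, stood at 78.0 CPM with siRNA 1 and 71.2 CPM with siRNA 2, against 72.6 CPM in control. RAB8B stood at 29.7 CPM with siRNA 1 and 26.1 CPM with siRNA 2, against 29.6 CPM in control.

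RAB3B and RAB3D govern regulated exocytosis. RAB3B was the only member at least 1.5-fold higher than control, in the siRNA 1 library. It stood at 25.2 CPM with siRNA 1 (629 tags) and 20.8 CPM with siRNA 2 (520 tags), against 15.6 CPM in control (391 tags). Its siRNA 1 level was 160.9% of the control level (141.6% to 183.0%, 95% exact interval), and its siRNA 2 level 133.0% (116.4% to 152.0%). On the log2 scale these are 0.65 and 0.39 (counting standard errors 0.088 and 0.091). RAB3D, the more abundant paralog, stood at 115.7 CPM with siRNA 1 and 106.9 CPM with siRNA 2, against 105.6 CPM in control. RAB27A, which docks secretory granules and exosome-bearing bodies, stood at 40.0 CPM with siRNA 1 and 39.4 CPM with siRNA 2, against 34.2 CPM in control (0.22 and 0.20). For RAB3B and RAB27A both siRNA libraries were high.

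Cilium and ubiquitin ligase RABs. RAB28 stood at 34.9 CPM with siRNA 1 and 36.6 CPM with siRNA 2, against 35.2 CPM in control. RAB23, a negative regulator of Hedgehog signalling, stood at 18.1 CPM with siRNA 1 and 20.3 CPM with siRNA 2, against 18.7 CPM in control. RAB40B and RAB40C carry a SOCS box that binds a ubiquitin ligase. RAB40C stood at 14.0 CPM with siRNA 1 and 12.5 CPM with siRNA 2, against 15.5 CPM in control. RAB40B stood at 4.64 CPM with siRNA 1 and 6.24 CPM with siRNA 2, against 5.04 CPM in control. With siRNA 2, to which RAB40B had the closest site among the members, it was 0.26 above control on the log2 scale, within 2 counting standard errors of 0.15.

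The machinery around the RABs was compared in 4 lists. Of 11 chaperones and prenylation factors, 38 exchange factors, 33 GTPase-activating proteins and 44 effectors with a mean of at least 5 CPM, none was at least 1.5-fold higher in both siRNA libraries, against 0.825% of all genes, and none 1.5-fold lower in both, against 0.899%. The chaperone and prenylation list had a median log2 ratio of -0.09 with siRNA 1 and -0.02 with siRNA 2, and the exchange factors -0.10 and -0.04. The GTPase-activating proteins had -0.08 and -0.02 and the effectors -0.08 and -0.02, against -0.03 and -0.04 over all genes. The chaperone and prenylation list was not closer to control than genes in general: its median absolute log2 ratio was 0.22 with siRNA 1 and 0.18 with siRNA 2, against 0.17 and 0.15 over all genes. At 1.5-fold with siRNA 1, 1 effector was higher, against 2.81% of all genes. Lower were 1 exchange factor, 1 GTPase-activating protein and 1 effector, against 2.56%. With siRNA 2, 1 GTPase-activating protein was higher, against 1.24% of all genes, and no gene of the 4 lists was lower, against 1.85%. Counts this small are not read as a departure from the shares of all genes. RAB3IL1, an exchange factor for RAB8, stood at 6.24 CPM with siRNA 1 and 9.36 CPM with siRNA 2, against 11.1 CPM in control (-0.74 and -0.22). HPS4, part of the exchange factor for RAB32 and RAB38, stood at 12.4 CPM with siRNA 1 and 11.04 CPM with siRNA 2, against 15.6 CPM in control (-0.31 and -0.46).

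CHM, the escort protein that presents RABs for prenylation, stood at 33.0 CPM with siRNA 1 and 29.1 CPM with siRNA 2, against 41.4 CPM in control (-0.32 and -0.50). ARL6IP5, a membrane protein of the prenylated RAB acceptor family, stood at 66.8 CPM with siRNA 1 and 64.7 CPM with siRNA 2, against 50.4 CPM in control. The GTPase-activating protein TBC1D22A stood at 18.4 CPM with each siRNA, against 26.4 CPM in control (-0.50 for both). TBC1D9 stood at 5.56 CPM with siRNA 1 and 8.28 CPM with siRNA 2, against 3.68 CPM in control (0.49 and 0.99). It passed the level filter through its siRNA libraries. MLPH, the RAB27A effector melanophilin, stood at 10.1 CPM with siRNA 1 and 22.0 CPM with siRNA 2, against 21.9 CPM in control (-1.04 and 0.00). KIF20A, a mitotic kinesin that binds RAB6, had ratios of 0.92 and 0.05. For MLPH and KIF20A the siRNA 1 library alone stood apart.

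Because CAGE counts starts, the promoters of the 3 members past 1.5-fold are shown. Each runs from 250 bases before to 50 after a RefSeq start (GRCh38.p14), and capitals mark motifs found on either strand. RAB43 has 4 RefSeq starts in the table, and the first listed is printed. Which of them gave the tags is not in the values used here.
RAB43, chr3:129121873-129122172, minus strand: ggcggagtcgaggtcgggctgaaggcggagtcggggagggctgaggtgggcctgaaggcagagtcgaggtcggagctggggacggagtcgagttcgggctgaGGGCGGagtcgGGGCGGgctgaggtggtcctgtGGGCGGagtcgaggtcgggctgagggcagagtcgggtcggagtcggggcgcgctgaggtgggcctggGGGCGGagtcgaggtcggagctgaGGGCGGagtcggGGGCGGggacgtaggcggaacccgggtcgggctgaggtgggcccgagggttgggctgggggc
RAB4B, chr19:40777997-40778296, plus strand: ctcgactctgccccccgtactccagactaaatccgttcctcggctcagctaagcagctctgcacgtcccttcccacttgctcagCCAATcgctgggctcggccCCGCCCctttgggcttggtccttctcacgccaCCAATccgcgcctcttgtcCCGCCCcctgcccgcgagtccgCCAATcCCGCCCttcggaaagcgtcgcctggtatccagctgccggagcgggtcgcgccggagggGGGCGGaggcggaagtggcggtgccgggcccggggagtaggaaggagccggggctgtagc
RAB3B, chr1:51990651-51990950, minus strand: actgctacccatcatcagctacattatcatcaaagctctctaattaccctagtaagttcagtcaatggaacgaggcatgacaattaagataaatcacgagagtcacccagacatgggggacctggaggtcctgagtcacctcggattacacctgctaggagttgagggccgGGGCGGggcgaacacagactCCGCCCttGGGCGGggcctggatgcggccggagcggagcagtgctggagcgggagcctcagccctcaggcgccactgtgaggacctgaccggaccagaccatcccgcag

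In all, 6 motifs were searched on both strands. The GC box was read as GGGCGG, the nuclear factor Y box as CCAAT and the palindromic E-box as CACGTG. The box that binds the TATA-binding protein was read as TATAAA, and the cyclic AMP response element as TGACGTCA. The composite site of ATF4 and CEBP factors was read as TGATGNAA, where N is any base. No motif contains another, and neighbouring matches can overlap. The RAB43 promoter shown held 6 GC boxes and none of the other motifs. The RAB4B promoter held 4 GC boxes and 3 CCAAT boxes, and the RAB3B promoter held 3 GC boxes. For the shares below, only the first listed start of each gene was used. The 4 RAB43 starts held between 6 and 10 GC boxes, and the first held 6. RefSeq promoters matched 34 members by symbol, counting RAB7L1 as RAB29. The GC box was present in 30 of these 34 (88.2%), against 73.1% of 7551 matched promoters of genes compared and 44.6% of all 27305. The E-box was present in 6 of 34 (17.6%), those of RAB21, RAB24, RAB29, RAB31, RAB4A and RAB5A, against 10.8% of the compared genes and 7.43% of all. CCAAT was present in 10 of 34 (29.4%), against 37.6% and 35.7%. TATAAA was in none of the 34, against 4.70% and 12.0%, and TGACGTCA in none, against 3.62% and 1.98%. The composite site was in 1 (2.94%), against 1.55% and 3.67%. Median GC content was 68.3% in the members' promoters, against 65.7% in those of the compared genes. RAB43, at 74.3%, and RAB3B, at 58.7%, lay on either side of the members' median.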

How the data were processed

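CAGE libraries of EBC-1 total RNA, 1 per siRNA, had been deposited as CPM per gene and strand by the authors. The submitters' processing notes name hg19, BWA and HISAT2 without roles. Not given in the sources used here are the annotation, the counting tool and how reads with several matches were treated. Deposited CPM values were whole multiples of 1 tag for 100.0% of values (tolerance 0.005 CPM), and the step gave 24999950 tags per library. With 3 tags as the limit, a count of 0 allows 0.120 CPM. Whether tags are separate molecules is not given, so intervals and standard errors cover counting error only.

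The log2 ratio of (CPM + 1) was computed for the 10788 genes whose mean reached 5 CPM. The mean takes in all 3 libraries, so a gene under 5 CPM in 1 library can pass through the others. RAB4B, RAB38 and TBC1D9 are examples. The recovered tags were compared by an exact two-sided binomial test with Benjamini-Hochberg adjustment at 0.05, an alternative that called 2518 genes higher and 3143 lower with siRNA 1, 1983 higher and 3230 lower with siRNA 2, and 2312 higher and 1656 lower in siRNA 1 than siRNA 2. Scripts were tested on simulated data. Members and lists were chosen with earlier results of these data known. Each member was put in 1 compartment. Values are printed for the 2 highest members of each compartment and for those at least 0.4 from 0 in log2 ratio in any comparison, and other members were added after their values were seen. Machinery genes were named if 0.58 or more from control in both siRNA libraries in one direction, or among the 2 with the largest absolute mean ratio of their list.

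Gene loci and siRNA sites used GRCh37 with the lifted GENCODE annotation and 1 canonical transcript per gene. The first 50 bases of each member's annotated starts were searched with minimap2 2.31. A start matching elsewhere with 2 or fewer mismatches was found for 5 members: RAB13, RAB18, RAB40C, RAB6A and RAB7A. Tried besides were a pseudocount of 0.5 or 5 CPM, a level filter at 1 or 20 CPM or none, and TMM (edgeR 4.0.16, R 4.3.3) and median-ratio scaling. The rest ran in Python 3.11.15 (scipy 1.17.1, matplotlib 3.10.9, pandas 2.3.3, pysam 0.24.0, numpy 2.4.6).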

Additional observations from a re-analysis of the deposited data

Results flagged for a closer look

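In all, 2 members stood on opposite sides of control in the siRNA libraries, each by more than 2 counting standard errors. RAB22A was lower with siRNA 1 and higher with siRNA 2, with a log2 ratio of -0.53 between siRNA 1 and siRNA 2. RAB32 did the same by less, with -0.14. With 1 library per group neither difference was tested. The 3′ UTR of RAB22A has a seed match of siRNA 1 and none of siRNA 2, and that of RAB32 has neither. The part of the seed match was not tested.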

How the results depend on the processing

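No paired analysis was possible because each group has 1 library, and no replicate could be left out. With a pseudocount of 0.5 CPM, 2 members (RAB43 and RAB4B) were at least 1.5-fold from control with siRNA 2 and in both libraries. With 5 CPM, 1 member was 1.5-fold from control with siRNA 1 and 0 were 2-fold with either siRNA. With the level filter at 1 CPM or none, which adds RAB36, RAB39B and RAB1C, 5 members were 1.5-fold and 2 were 2-fold from control with siRNA 1, and 2 were 1.5-fold with siRNA 2 and in both. Shares of all genes were not computed at these pseudocounts and filters, so these counts are not read against a background. Under TMM and median-ratio scaling 0 were 2-fold with siRNA 2. The exact binomial test called 20 members with siRNA 1, 17 with siRNA 2 and 20 between the siRNAs. Counting RAB5C once, which leaves 41 members, changed no 1.5-fold or 2-fold count. With RAB4B and RAB43 also left out, both chosen after seeing the data, 1 member was 1.5-fold from control with siRNA 1, and 0 were 2-fold with siRNA 1, 0 were 1.5-fold or 2-fold with siRNA 2, and 0 in both. The member medians lay between -0.06 and -0.02 with siRNA 1 and between -0.03 and 0.03 with siRNA 2 over the alternatives run. With siRNA 2, the log2 ratio of RAB7A was 0.00 and that of RAB2A -0.07 under both scalings, and with siRNA 1 that of RAB4B was -0.54 at a pseudocount of 5 CPM. Members at a few CPM, such as RAB4B, RAB38 and RAB39B, rest on few tags.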
